A study of Caenorhabditis elegans with 6 samples.

Results

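The core and linker histone genes of Caenorhabditis elegans were described in worms kept on either of 2 bacterial diets. They were taken as every gene whose symbol begins with his- or hil- in the deposited tables, which gave 30 of 18811 genes: 21 core histone genes and 9 linker histone genes, his-24 and hil-1 to hil-8. The RefSeq table of the same genome build, WBcel235, names 80 genes in this way, and those without a row in the deposited tables are not analysed here. RNA of whole adult worms was sequenced in 6 libraries, 3 per diet. Both groups were synchronized adults raised at 20 °C that were placed, as larvae of stage 4, on lawns of Escherichia coli; 1 group received BW25113, a laboratory strain, and the other a mutant E. coli that the labels call purE, the name of a bacterial gene of purine synthesis. The series as a whole asks how genes of gut bacteria bear on host life span. The sources used here do not give the worm strain, the adult age, the nature of the mutation or whether replicates were separate cultures, and p-values therefore measure only the spread between these samples.

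Core histones (H2A, H2B, H3 and H4) form the protein spool of the nucleosome, and linker histones of the H1 family bind the DNA where it enters and leaves that spool. Canonical core histones are made during DNA replication from clustered genes without introns, and their mRNAs typically end in a stem-loop in place of a poly(A) tail. Replacement variants such as H3.3 are made throughout the cell cycle from genes with introns and polyadenylated mRNAs. In an adult hermaphrodite the somatic cells no longer divide, whereas germ cells and embryos do. The product of his-24, also known as H1.1, is a linker histone required for gene silencing in the germ line.

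Total estimated counts per library ran from 21880627 to 22607939, and the upper limit set by an observed count of 0, which is 3 counts, was 0.110 to 0.160 CPM (counts scaled to library size by the TMM method; counting error only). The libraries of the purE group did not lie together: on the first principal component of log2 CPM, which held 69.3% of the variance, purE replicate 1 stood at -26.02, next to the BW25113 libraries at -39.7 to -59.8, whereas purE replicates 3 and 2 stood at 50.8 and 120. Results are therefore also given without purE replicate 1. Leaving out the purE library nearest to the other diet widens the distance between the groups on that component. Counts on single core histone genes carry a further limit, since near-identical copies may have had their reads divided between them. Of the 30 genes, 22 had a fractional estimated count in at least 1 library, 19 of them core histones, and 11 core histone genes had one in all 6 libraries. The Ensembl annotation gives 13 of the core histone loci a name shared by several loci, 4 of them for his-52 and 4 for his-21 (named his-51 there).

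All 9 linker histone genes had a log2 fold change below 0 on the purE diet, as did 5878 of the 12144 genes tested. Among the linker genes, hil-8 was at -0.01 ± 0.58 (SE), and hil-8 and hil-1 changed sign in some alternative settings. Of the 9, 5 lay lower in every purE library than in any BW25113 library, against 6.68% of all genes tested. These include hil-6, which passed the low-count filter only through its BW25113 libraries, and without it the count was 4 of 8. Core histone genes went both ways. Linker histone RNA, summed over the 9 genes, stood at 3193, 3819 and 2774 CPM in the BW25113 libraries and at 1785, 1516 and 2752 CPM in the purE libraries, a ratio of group means of 0.619. The groups did not overlap, but purE replicate 3 lay just under BW25113 replicate 3. Core histone RNA, summed over the 21 genes, stood at 1345, 1303 and 841 CPM on BW25113 and at 854, 745 and 1087 CPM on purE, with a ratio of 0.770 and overlapping groups. Sums over genes were given no test.

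In edgeR's quasi-likelihood test over 12144 genes, with Benjamini-Hochberg adjustment, 0 of the 26 histone genes that passed the low-count filter were called, where the share over all genes was 0.0%. At an unadjusted p under 0.05, 5 of 9 linker histone genes were lower, against 3.81% of all genes tested, and 0 were higher, against 12.7%. Among these, hil-6 reached the level of the low-count filter in no purE library and so could be tested only because it was higher on BW25113; of the other 8 linker genes, 4 were lower at that level, the same 4 that did not overlap between the diets. Of the 17 core histone genes tested, 2 were lower and 2 higher at that level. DESeq2, which takes a different estimate of the spread, called 4 linker histone genes lower, against 1.53% of all genes, and 0 higher, against 6.26%, and it called 0 core histone genes. Without purE replicate 1, edgeR called 5 linker histone genes lower at an adjusted p under 0.05, against 3.48% of the genes then tested, 0 higher, against 11%, and 0 core histone genes. These 5 include hil-6. With any 1 of the other libraries left out in its place, edgeR called 0 of all genes tested. The median log2 fold change was -0.98 over the linker genes and -0.22 over the core genes tested, against 0.03 over all genes tested.

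The most abundant linker histone RNAs per gene length were hil-4 and hil-5, neither of which was called. In FPKM (fragments scaled to gene length and library size, as deposited), hil-4 averaged 1497 ± 226 on BW25113 and 1076 ± 363 on purE, and hil-5 averaged 1343 ± 222 and 889 ± 253 (SD, n = 3). The order of mean FPKM on BW25113 then ran through his-24 at 645 ± 208, hil-2 at 212 ± 19.3, hil-7 at 203 ± 144 and hil-3 at 157 ± 44.6 (SD, n = 3). Neighbours in that order from hil-2 to hil-3 lay within their spread, as did hil-4 and hil-5. The genes hil-1, hil-6 and hil-8 were low, at 4.02, 1.09 and 0.473 FPKM on BW25113. Linker genes lay on chromosomes I (hil-5, hil-8), IV (hil-2, hil-7), V (hil-1, hil-4, hil-6) and X (his-24, hil-3), and all 9 have introns and an annotated 3′ untranslated region. The coding length of hil-7 was 198 bases, against 453 to 759 bases for the other 8, so that its membership of the family rests on its name here.

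**Figure D1:**
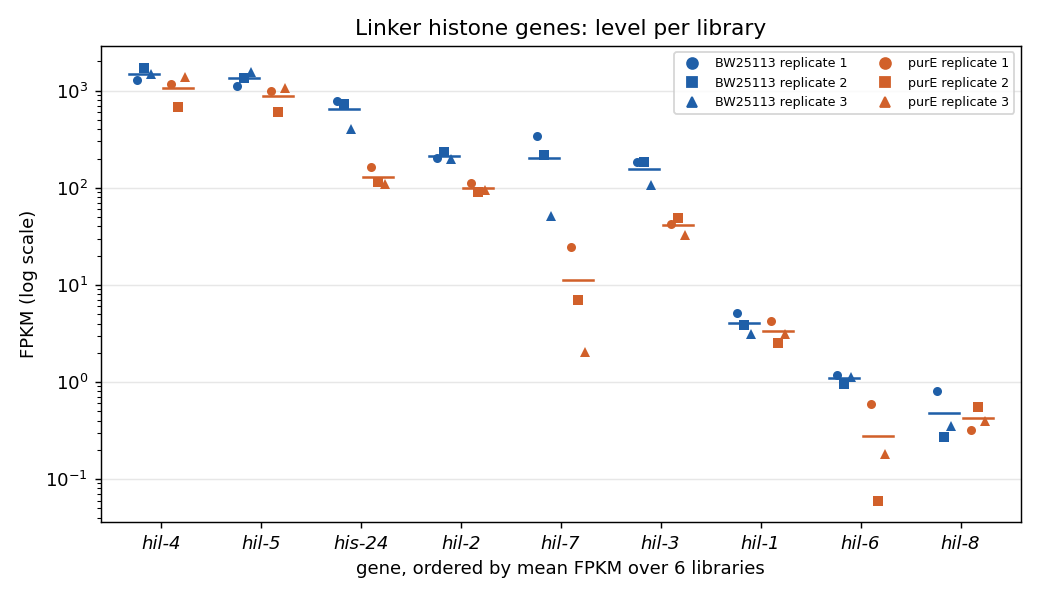
FPKM (log scale) of each linker histone gene in the 6 libraries, with horizontal lines at the group means and genes ordered by their mean. The purE points of his-24, hil-2, hil-7, hil-3 and hil-6 all lie under the BW25113 points, as do those of hil-5 on this scale, while those of hil-4, hil-1 and hil-8 overlap them. The share of all genes without overlap was not taken in FPKM, so these patterns have no background beside them.

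The gene his-24 (WBcel235, chromosome X, 14490094 to 14491119) stood at 689, 660 and 304 CPM in BW25113 libraries 1, 2 and 3 and at 117.3, 114.3 and 113.1 CPM in purE libraries 1, 2 and 3. All purE libraries lay below even the lowest BW25113 library, replicate 3. They were alike in CPM but less so in FPKM, where they stood at 162, 114 and 109.6. Group means were 551 ± 215 and 115 ± 2.15 CPM (SD, n = 3), a 4.8-fold lower mean on purE, with a log2 fold change of -2.26 ± 0.35 (SE). The edgeR unadjusted p was 0.000151 and the Benjamini-Hochberg adjusted p 0.129, against an adjusted p of 1.6e-06 in DESeq2. Over 21 alternative settings the log2 fold change ran from -2.64 to -2.09 and the adjusted p from 6.51e-19 to 0.485, with 8 calls. In DESeq2 his-24 was called in each of the 6 fits that left out 1 library.

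The gene hil-3 (chromosome X, 8159169 to 8160084), an H1 paralog, behaved in the same direction. It stood at 152.5, 155.4 and 75.2 CPM on BW25113 and at 28.8, 47.2 and 31.9 CPM on purE, again with BW25113 replicate 3 nearest to the purE range and no overlap. Its log2 fold change was -1.83 ± 0.35 (SE), and the adjusted p-values were 0.129 (edgeR) and 0.000232 (DESeq2). DESeq2 called it in each of the 6 fits that left out 1 library, and the adjusted p ran from 3.89e-07 to 0.485 over the 21 alternatives.

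The gene hil-2 (chromosome IV, 6294240 to 6295217), another H1 gene, stood at 146, 173 and 123 CPM on BW25113 and at 67.2, 75.2 and 81.6 CPM on purE, a 1.97-fold lower mean. The purE libraries lay together and the groups did not overlap. The log2 fold change was -0.98 ± 0.24 (SE), and the adjusted p-values were 0.129 (edgeR) and 0.00641 (DESeq2). DESeq2 called it in 5 of the 6 fits that left out 1 library, the exception being the fit that left out BW25113 replicate 2 (adjusted p 0.0872), and over 21 alternatives the adjusted p ran from 0.00140 to 0.485.

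The gene hil-7 (chromosome IV, 6646312 to 6646972) had the largest log2 fold change of the histone genes tested and also the widest spread. It stood at 121, 80.4 and 15.9 CPM on BW25113 and at 7.28, 2.96 and 0.963 CPM on purE. The groups did not overlap, yet BW25113 replicate 3 and purE replicate 1 differed by far less CPM than the BW25113 libraries differed among themselves. The log2 fold change was -4.26 ± 0.89 (SE), and the adjusted p-values were 0.129 (edgeR) and 6.33e-06 (DESeq2). In edgeR it became -5.31 when purE replicate 1 was left out and -3.69 when BW25113 replicate 1 was. DESeq2 called it in 5 of the 6 fits that left out 1 library, with an adjusted p of 0.0544 without purE replicate 2, and over 21 alternatives the adjusted p ran from 2.06e-12 to 0.485.

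The gene hil-6 (chromosome V, 2030507 to 2031554) was near the limit of detection, with 20, 16 and 19 estimated counts on BW25113 and 10, 1 and 3 on purE. The groups did not overlap, but purE replicates 2 and 3 were at or under the limit of 3 counts. Its log2 fold change of -1.92 ± 0.62 (SE) gave adjusted p-values of 0.167 (edgeR) and 0.175 (DESeq2), and 0.0312 in edgeR when purE replicate 1 was left out, with a range of 0.0312 to 0.541 over 19 alternatives.

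The other 4 linker histone genes overlapped between the diets in CPM. The abundant hil-4 (chromosome V, 4754313 to 4755453) stood at 1159, 1614 and 1155 CPM on BW25113 and at 889, 705 and 1477 CPM on purE, and hil-5 at 918, 1131 and 1098 CPM against 672, 568 and 1044 CPM. In both genes purE replicate 3 lay within the BW25113 range and purE replicate 2 was the lowest library. Their log2 fold changes were -0.36 ± 0.34 and -0.46 ± 0.30 (SE), with edgeR adjusted p-values of 0.586 and 0.462. In FPKM the hil-5 groups did not overlap. The values for hil-1 and hil-8 were -0.20 ± 0.38 and -0.01 ± 0.58 (SE).

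The make-up of linker histone RNA, which does not depend on how libraries are scaled to each other, differed accordingly. The share of his-24 in the summed linker FPKM was 20.2%, 16.6% and 10.65% in the BW25113 libraries and 6.45%, 7.40% and 4.07% in the purE libraries. The joint share of hil-4 and hil-5 was 61.2%, 69.1% and 79.9% on BW25113 and 86.2%, 82.8% and 91.0% on purE. Neither share overlapped between the diets. The log2 ratio of his-24 to hil-4 FPKM averaged -1.26 ± 0.59 on BW25113 and -3.03 ± 0.56 on purE (SD, n = 3), a difference of -1.76 with a two-sided exact permutation p of 0.1, the smallest that 3 against 3 libraries allow. Of 8 such ratios between histone genes, chosen after the levels were known, 3 reached that p and none could pass 0.05, and the Benjamini-Hochberg adjusted p was 0.267 for these 3. The ratio of hil-2 to hil-4 averaged -2.81 ± 0.14 and -3.38 ± 0.47 (SD, n = 3) with overlapping groups, at an exact permutation p of 0.2.

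**Figure D2:**
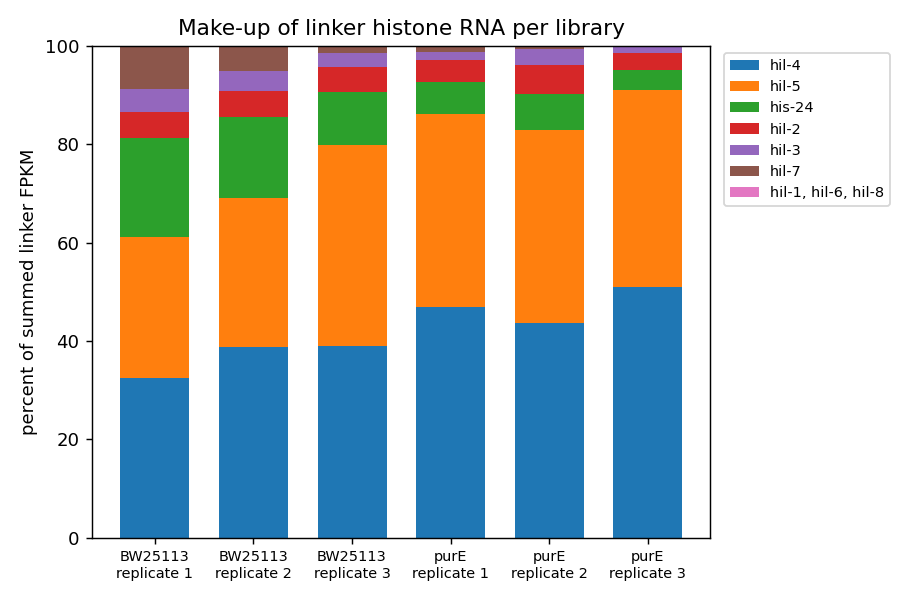
Each bar is 1 library and shows the percent of the summed linker histone FPKM taken by each gene. The his-24 segment spans 10.65% to 20.2% in the BW25113 libraries and 4.07% to 7.40% in the purE libraries, and the hil-7 segment goes from 8.63% in BW25113 replicate 1 to 0.0753% in purE replicate 3.

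Among the core histone genes in the tables, those of the replacement variant H3.3 held most of the summed FPKM. The H3.3 genes his-74, his-72 and his-71 together held 80.1% ± 1.91 of the summed core FPKM on BW25113 and 73.5% ± 8.40 on purE (SD, n = 3), the lowest share being 63.8% in purE replicate 2. The denominator holds only the 21 core genes with a row in the deposited tables, so RNA of copies not analysed here is not in it and the share of H3.3 among all core histone RNA may be smaller. Nor do the sources used here say whether poly(A) RNA was selected, a step that would leave out canonical histone mRNAs. The gene his-74 averaged 966 ± 167 FPKM on BW25113 and 692 ± 282 on purE, his-72 averaged 575 ± 93.75 and 343.5 ± 94.2, and his-71 averaged 73.1 ± 27.5 and 88.7 ± 22.9 (SD, n = 3). The 14 core genes with 1 exon and no annotated 3′ untranslated region had mean FPKM values of 1.27 to 63.6, and the 7 core genes with an annotated one had values of 0.53 (his-57) to 829 (his-74).

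**Figure D3:**
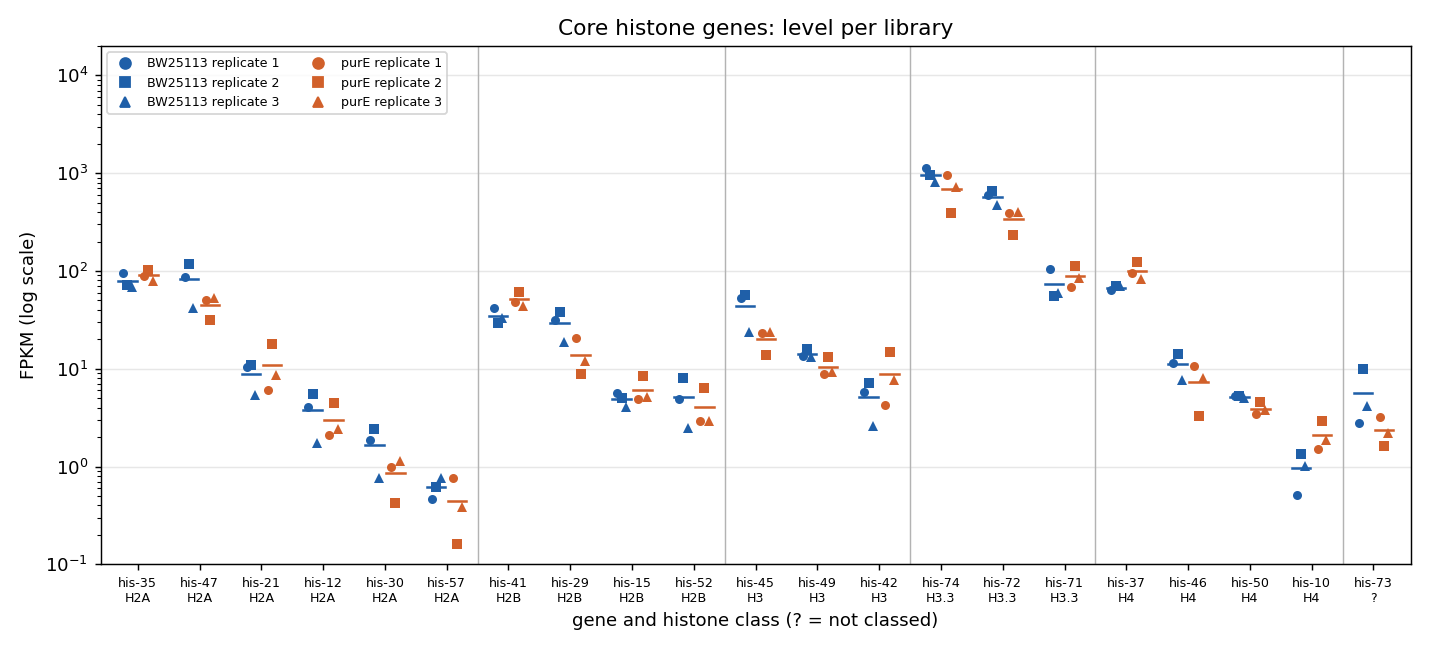
FPKM (log scale) of each core histone gene in the 6 libraries, grouped by histone class and ordered by mean level within a class, with lines at the group means. The H3.3 genes his-74 and his-72 stand above all other core genes, and on this scale the BW25113 and purE points overlap for 15 of the 21 genes, the exceptions being his-10, his-37 and his-41 (purE higher) and his-45, his-50 and his-72 (purE lower). The share of all genes without overlap was not taken on this scale, so the count has no background beside it. In CPM, his-37 was the 1 core gene tested without overlap, and his-10 did not pass the low-count filter.

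No H3.3 gene was called by edgeR or DESeq2. The gene his-72 (chromosome III, 12367475 to 12369050) stood at 508, 569 and 342 CPM on BW25113 and at 274, 229 and 406 CPM on purE. Its log2 fold change was -0.64 ± 0.32 (SE), with an edgeR adjusted p of 0.365. The gene his-74 (chromosome V, 12659704 to 12660330) stood at 606, 521 and 367 CPM against 420.5, 241 and 459 CPM; the log2 fold change was -0.41 ± 0.33 (SE), at an edgeR adjusted p of 0.532. In both genes purE replicate 2 was the lowest library and the groups overlapped in CPM. The gene his-71 (chromosome X, 7981382 to 7982070) went the other way within that library, which was its highest: it stood at 56.9, 31.1 and 27.4 CPM on BW25113 and at 30.6, 70.9 and 54.3 CPM on purE, with a log2 fold change of 0.43 ± 0.39 (SE). The log2 ratio of his-71 to his-72 FPKM averaged -3.02 ± 0.52 on BW25113 and -1.94 ± 0.78 on purE (SD, n = 3), with a two-sided exact permutation p of 0.2.

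The core genes with values above 0 of smallest p lie side by side on chromosome V. They are his-37, which encodes H4 (9547105 to 9547607), and his-41, which encodes H2B (9545536 to 9546264), and with his-35, which encodes H2A (9544659 to 9545288), they form a cluster of genes with introns and annotated 3′ untranslated regions. Only 247 bases lie between the divergent pair his-35 and his-41. The gene his-37 had whole-number counts in every library and stood at 25.6, 28.9 and 23.95 CPM on BW25113 and at 32.1, 57.4 and 39.2 CPM on purE. It was the 1 core gene tested whose purE libraries all lay above the BW25113 libraries, a pattern seen in 13.1% of all genes tested, and purE replicate 2 was the highest. Its log2 fold change was 0.71 ± 0.28 (SE), with an edgeR adjusted p of 0.245. The gene his-41 stood at 21.5, 15.2 and 14.5 CPM against 20.4, 35.9 and 26.6 CPM, and its log2 fold change was 0.70 ± 0.30 (SE) at an edgeR adjusted p of 0.300. The gene his-35 had 0.33 ± 0.28 (SE). All 3 had positive values in each of 21 alternatives.

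The 2 core genes that were lower at an unadjusted p under 0.05 lie on chromosome IV. The next smallest p among core genes with values below 0 was that of the H3.3 gene his-72 on chromosome III (0.0756, edgeR unadjusted). The H2B gene his-29 (8331044 to 8331412) stood at 10.2, 12.6 and 5.11 CPM on BW25113 and at 5.48, 3.27 and 4.6 CPM on purE, with -1.06 ± 0.42 (SE) as its log2 fold change and 0.247 as its edgeR adjusted p. The H3 gene his-45 (11326588 to 11326998) stood at 18.98, 21.3 and 7.36 CPM against 7.06, 5.75 and 10.1 CPM, with -1.05 ± 0.44 (SE) and 0.273. In both genes BW25113 replicate 3 lay inside the purE range and not with the other BW25113 libraries. The H2A gene his-47 (11324056 to 11324439), in the same cluster, stood at 28.9, 41.1 and 12.1 CPM against 13.9, 12.2 and 21.02 CPM, with -0.80 ± 0.44, and the H4 gene his-46, divergent from his-45 with 258 bases between them, had -0.54 ± 0.49 (SE). Without BW25113 replicate 3, DESeq2 called his-29, his-45 and his-47 lower, with adjusted p-values of 0.0205, 0.00639 and 0.0367, where 1.68% of all genes tested were called lower. Without purE replicate 1 it called his-29 lower, at 0.0276, where 7.1% of all genes were. In edgeR none of them was called in any fit, and over 21 alternatives the adjusted p of the 3 genes reached 0.615, 0.617 and 0.863.

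All 6 histone genes tested on chromosome IV, 4 core and 2 linker, had negative values, with a median log2 fold change of -1.02, and on chromosome V 4 of 11 were positive. Over all genes tested, 5878 of 12144 were negative, and the share among all genes of chromosome IV is not given here. The 6 include hil-2 and hil-7, described above, and his-45, his-46 and his-47, which lie in the same cluster. Reads shared between near-identical copies limit what these positions say for single genes.

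For the remaining core genes tested, the groups overlapped in CPM. The H3 gene his-42 stood at 2.10, 2.675 and 0.801 CPM on BW25113 and at 1.29, 6.18 and 3.32 CPM on purE, and its log2 fold change was 0.95 ± 0.65 (SE). The H2A gene his-21 had 0.45 ± 0.58, the H2B gene his-15 had 0.46 ± 0.46 and the H3 gene his-49 had -0.28 ± 0.39 (SE). The values of his-50 (H4), his-52 (H2B) and his-12 (H2A) ran from -0.28 to -0.20. Across the 17 core genes tested, BW25113 replicate 3 was the lowest BW25113 library for all 17 and the lowest of all 6 for 10, while purE replicate 2 was the highest of all 6 for 7 and the lowest for 5. The genes his-10, his-30, his-57 and his-73 did not pass the filter, with mean levels of 0.305 to 0.437 CPM. The gene his-73, whose coding length is 138 bases and which was put in no class, stood at 0.269, 0.969 and 0.343 CPM on BW25113 and at 0.257, 0.158 and 0.267 CPM on purE.

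Summed by class over the genes in the tables, H4 alone of the 5 classes had no overlap between the diets. Such a sum does not depend on how reads were divided among the genes in it, but it does on how many went to copies not analysed here. The 4 H4 genes summed to 30.1, 34.6 and 27.1 CPM on BW25113 and to 35.5, 60.7 and 43.5 CPM on purE, a ratio of 1.52, and his-37 made up most of it. Of the 3 H4 genes tested, the other 2, his-46 and his-50, went the opposite way, with log2 fold changes of -0.54 and -0.28. The ratio was 0.979 for H2A, 1.21 for H2B, 0.675 for canonical H3 and 0.722 for H3.3, each with overlapping groups. For the core genes other than H3.3 the ratio was 1.08, and 1.00 when CPM was taken from library size alone, without TMM.

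**Figure D4:**
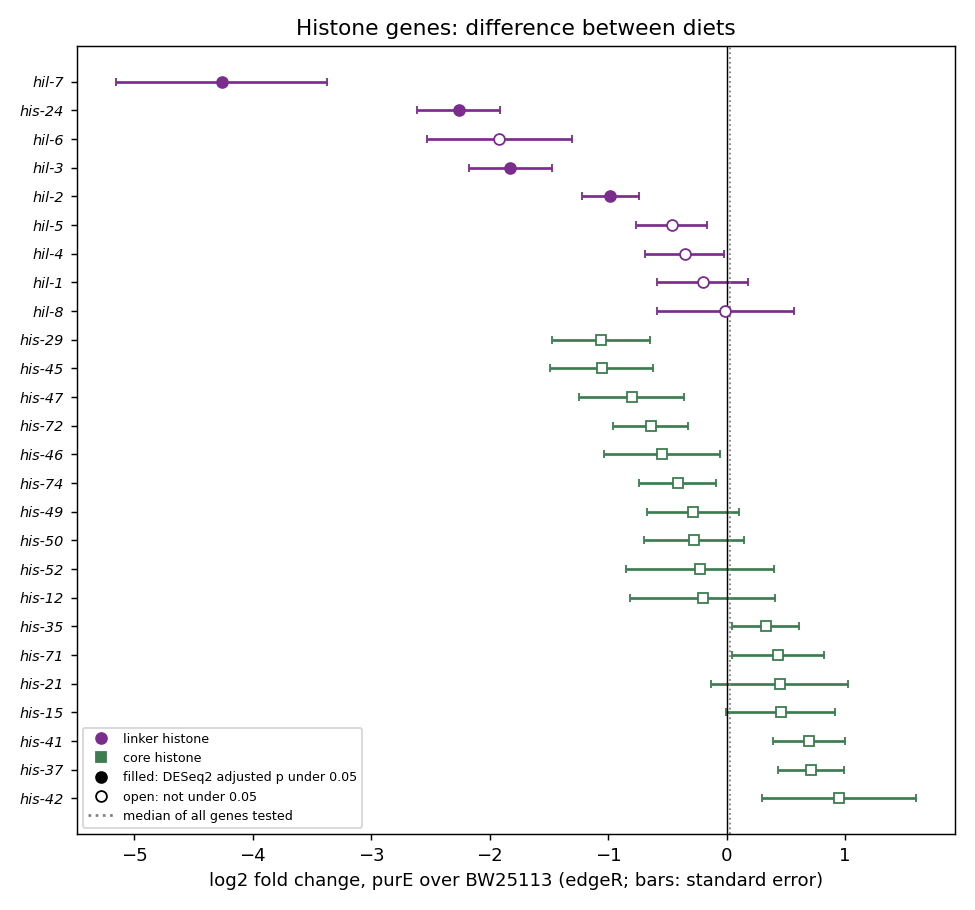
Log2 fold change of purE over BW25113 with its standard error for the 26 histone genes tested, with the median of all genes tested as a dotted line. Linker genes run from -4.26 to -0.01 and core genes from -1.06 to 0.95, and the filled points, called by DESeq2, are hil-7, his-24, hil-3 and hil-2.

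Genes that work with histones were examined from lists. Of the histone variants under other symbols, htz-1 encodes H2A.Z, and hcp-3 and cpar-1 encode the centromeric histone CENP-A and its relative. The gene htz-1 stood at 858, 1231 and 824 CPM on BW25113 and at 791, 562 and 869 CPM on purE, and the log2 fold changes were -0.39 ± 0.29 for htz-1, -0.19 ± 0.24 for hcp-3 and -0.24 ± 0.30 for cpar-1 (SE). The gene cdl-1, which encodes the stem-loop-binding protein of histone mRNA, had -0.45 ± 0.31 (SE) and overlapping groups. Of 17 genes for histone mRNA processing and histone chaperones, 15 had values below 0 and the median was -0.45, while of 36 DNA replication genes 33 did and the median was -0.43. Neither edgeR nor DESeq2 called a gene of these lists, or of 13 genes of chromatin condensation, where the median was -0.53, and the only one at an unadjusted p under 0.05 in edgeR was the replication gene pole-1, with -0.71 ± 0.26 (SE). The genes of smallest p in the other lists were xnp-1, a chromatin remodeller related to ATRX, with -0.55 ± 0.31, and dpy-27, a condensin subunit of dosage compensation, with -0.81 ± 0.37 (SE). The library purE replicate 2 stood apart in these lists: the mean log2 CPM of the replication list, with each gene centred on 0, was -0.84 in purE replicate 2, against 0.21 and -0.07 in purE replicates 1 and 3 and 0.04 to 0.35 on BW25113.

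Unlike those lists, the linker histone genes did not overlap between diets in their mean centred log2 CPM. In summed CPM the replication list did not overlap either, at 2967 to 3422 on BW25113 and 1612 to 2916 on purE. Of its 36 genes, 5 lay lower in every purE library, against 6.68% of all genes tested. In the condensation list 1 of 13 did, and in the chaperone list 0 of 17. Marker lists of other cells went in different directions. In mean centred log2 CPM the early embryo list was also lower on purE without overlap, and the oocyte and germline list overlapped. In summed CPM neither of these lists overlapped. All 13 sperm markers tested were higher in every purE library than in any BW25113 library. Most cuticle markers had positive values, but 0 of 17 were higher in every purE library. In that list purE replicate 1 was the lowest library, at a mean centred log2 CPM of -1.57, against -0.80 to 0.01 on BW25113. The mean centred log2 CPM of the 9 linker genes was 1.00, 0.83 and 0.16 on BW25113 and -0.55, -0.76 and -0.68 on purE. In whole-worm RNA, fewer cells of a type and less RNA per cell cannot be told apart. Of 9 early embryo markers tested out of 15 in the tables, 8 had values below 0, the median was -0.73, and 5 of the 9 lay lower in every purE library than on BW25113, against 6.68% of all genes tested. As with hil-6, some of these markers may have been tested only because they were higher on BW25113, which was not examined. Their mean centred log2 CPM, at 0.24 to 0.67 on BW25113 and -0.79 to -0.15 on purE, did not overlap either. The gene of smallest p among them was nhr-25, a nuclear receptor, with -1.52 ± 0.38 (SE). Their summed level was 307 to 346 CPM on BW25113 and 150 to 273 CPM on purE, and sdz-38, tbx-38 and med-1 were at 0 in some library. Of 27 oocyte and germline markers, 26 had values below 0; the median was -0.45, and summed levels were 13490 to 16350 CPM on BW25113 and 7958 to 13065 CPM on purE. Their mean centred log2 CPM overlapped, at -0.08 to 0.39 on BW25113 and at 0.05, -0.69 and 0.02 on purE, with purE replicate 2 standing apart. The gene of smallest p was oma-1, a regulator of oocyte maturation, with -0.62 ± 0.28 (SE). All 13 sperm markers tested, of 14 in the tables, had positive values, with a median of 2.91 and summed levels of 462 to 805 CPM against 1002 to 8100 CPM. The gene of smallest p was msp-3, a major sperm protein gene, with 3.06 ± 0.67 (SE). Of 17 markers of moulting cuticle, 14 had positive values, with a median of 0.71 and summed levels of 4477 to 5145 CPM on BW25113 and 2527 to 10925 CPM on purE. DESeq2 called 6 of these cuticle markers higher and 1 lower, and 12 sperm markers higher and 0 lower. It called 1 early embryo marker lower and 0 higher, and 0 oocyte and germline markers. Over all genes tested it called 6.26% higher and 1.53% lower. The cuticle marker called lower, also that of smallest p in its list, was dpy-17, a cuticle collagen. It stood at 494, 260 and 62.4 CPM on BW25113 and at 25.2, 7.60 and 6.47 CPM on purE. As for hil-7, all purE libraries lay below BW25113 replicate 3, which was the lowest of its diet. The log2 fold change of dpy-17 was -4.37 ± 0.84 (SE), at adjusted p-values of 0.129 (edgeR) and 5.58e-07 (DESeq2), and DESeq2 called it in each of the 6 fits that left out 1 library. No oocyte, germline, sperm or cuticle marker was at 0 in any library. The part of these cells in the histone values was not tested.

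**Figure D5:**
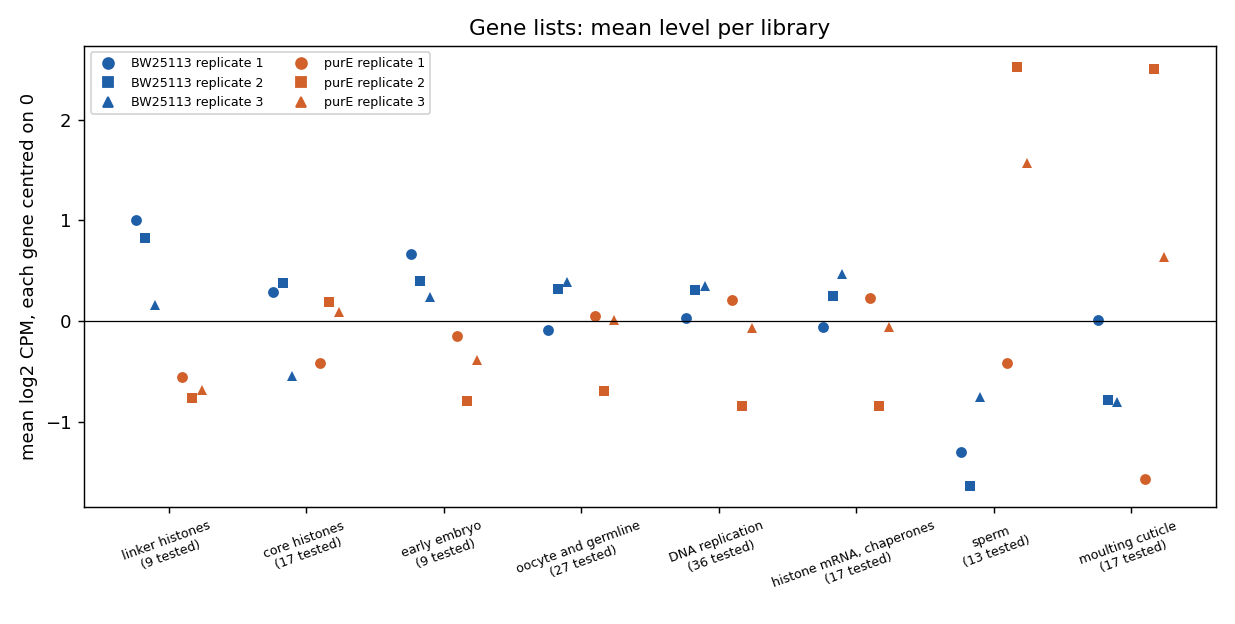
Mean log2 CPM per library of the tested genes of each list, with every gene centred on 0 over the 6 libraries. The linker histone points of the purE libraries lie between -0.76 and -0.55, under the BW25113 points at 0.16 to 1.00, whereas the core histone points overlap. The DNA replication list is lowest in purE replicate 2, at -0.84, with purE replicates 1 and 3 at 0.21 and -0.07 and BW25113 at 0.04 to 0.35.

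Outside the histone genes, the levels most like the summed core histone level over the 6 libraries were those of lido-13, T27F6.7 and M01H9.3, each with a Pearson correlation of 0.99 on the log2 scale. They are the 3 highest of all genes tested, so the value is a description of 6 libraries that also share their depth scaling, and it was given no test. The summed core level was mostly that of the H3.3 genes, with group means of 1010 of 1163 CPM on BW25113 and 729 of 895 CPM on purE.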

How the data were processed

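RNA of whole adult worms was compared between 3 BW25113 and 3 purE libraries, grouped and numbered by their titles. The authors deposited estimated counts per gene and FPKM values, per the file headers; their processing notes name the build WBcel235, and for the aligner, counter and strand setting the entry is: not given in the sources used here. Estimated counts were rounded. Genes passing edgeR's default expression filter (12144 of 18811) were scaled by TMM and tested with edgeR 4.0.16 (R 4.3.3), quasi-likelihood, two-sided, Benjamini-Hochberg adjustment, threshold 0.05; each standard error is the fold change divided by the square root of F. Log2 CPM used a prior count of 2. CPM values for libraries are TMM-scaled, and levels of different genes were compared in FPKM. Positions come from RefSeq by gene identifier (30 of 30 matched), and exons and names from Ensembl release 115 of that build. Histone classes of core genes were assigned from their known names and set beside coding lengths.

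Named were all linker histones, the core variants, the 5 other core genes of smallest p per direction, the 5 of highest FPKM, fixed partner genes and, per list, the gene of smallest p. The remaining core genes are named once each so that every gene is accounted for. Histone genes, lists and tests were chosen with earlier results of these data known. Alternatives were other filters, scalings, DESeq2 1.42.0, limma 3.58.1 (voom, and on log2(FPKM + 1) with at least 1 FPKM in 3 libraries), the replicate number as a block and each library left out; a newer form of the edgeR test and DESeq2 without each library were added after seeing the data. No replicate libraries were duplicates (chi-square per degree of freedom of at least 42.5). The procedures were checked on simulated counts.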

Additional observations from a re-analysis of the deposited data

How the results depend on the processing

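The 5 linker genes lower in all purE libraries kept a negative log2 fold change in every alternative in which they were tested, as did hil-4 and hil-5, and 14 of 17 core genes kept their sign throughout. Linker genes called numbered 0 in edgeR, 4 in DESeq2 and 1 (hil-7) with the replicate block, where 2 of 12144 genes were called in all. With 1 library left out of edgeR they numbered 5 without purE replicate 1, hil-6 among them, and 0 otherwise. DESeq2 with 1 library left out gave 3 to 5, where 45 to 910 of 12370 to 12833 genes were called lower. Core genes called numbered 0, or 0 to 3 in DESeq2 with 1 library left out. The replicate numbers were not taken to pair libraries: same-numbered libraries had correlations of -0.14, -0.17 and 0.14 in their deviations. At an unadjusted p under 0.05, core genes higher on purE numbered 2, but 1 without a low-count filter, with DESeq2 size factors, in DESeq2, limma-voom or limma on FPKM, 0 with library size alone or the replicate block, and 0 to 3 with 1 library left out; those lower numbered 2, but 0 in limma-voom or with the replicate block and 0 to 4 with 1 library left out. The core median of -0.22 turned to 0.11 without BW25113 replicate 2 (0.0832 in DESeq2) and to -0.50 without BW25113 replicate 3. With 1 library left out, the highest counts always without purE replicate 1, DESeq2 called 0 to 3 chaperone, 0 to 7 replication and 0 to 2 condensation genes, and edgeR 0, 0 to 1 and 0 to 1, where without that library 7.1% (DESeq2) and 3.48% (edgeR) of all genes were called lower. Signs also turned for hil-1 (-0.50 to 0.00684 with 1 library left out), his-21 (-0.20 to 0.71, and -0.25 in DESeq2 without purE replicate 2), his-12 (-0.70 to 0.11, and 0.0832 and 0.00345 in DESeq2 without BW25113 replicate 2 and purE replicate 1), his-52 (-0.80 to 0.22, and 0.20 in DESeq2 without BW25113 replicate 2) and hil-8 (0.0514 in limma-voom, 0.0859 with the block, -0.37 to 0.63 with 1 library left out, 0.63 and 0.57 in edgeR and DESeq2 without BW25113 replicate 1, 0.16 and 0.16 without purE replicate 1). Scaling by library size alone shifted all genes by -0.11 and the FPKM fit by -0.12 (median log2). Causes were not tested.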
